A study of Homo sapiens with 15 samples.

Results

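The regions described here are 2024 FOXA1 peaks of DMSO-treated parental 22Rv1 cells that were also listed with the stereoprobe WX-02-23, with PladB and with a control small interfering RNA, but not with the stereoprobe WX-02-43. They were chosen by the presence or absence of a deposited peak in 5 parental lists, with an overlap of 1 bp or more counted as presence. The DMSO list held 30557 peaks, of which 13792 were shared with WX-02-23, PladB and siControl. The 2024 regions made up 14.7% of these shared peaks (95% Wilson interval 14.1 to 15.3%) and 6.62% of the whole DMSO list. Because the 5 lists chose the regions, every value from those lists is given as a description and supports nothing. The shared peaks that were also listed with WX-02-43 (11768, present in all 5 lists) are called kept sites, and the 2024 regions are called WX-02-43-missing sites.

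FOXA1 is a forkhead transcription factor that binds its DNA motif on nucleosomes and helps open chromatin, which is why it is called a pioneer factor. In prostate cells it occupies enhancers and prepares many of them for the androgen receptor. A ChIP-seq peak is a stretch of genome where fragments bound to the precipitated protein pile up, so a missing peak means a signal below the caller's threshold and not a measured absence of protein. PladB (pladienolide B) binds the splicing factor complex that contains PHF5A. The study title describes covalent small molecules acting on FOXA1, and the design pairs WX-02-23 with the stereoprobe WX-02-43.

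22Rv1 is an established human prostate carcinoma line. The parental FOXA1 ChIP libraries used here were DMSO at 0.1%, WX-02-23 at 20 µM, WX-02-43 at 20 µM, PladB, siControl and siFOXA1. The compound treatments lasted 3 h. The PladB dose is 100 nM in the sample's own label and 10 nM in the shared protocol. Both engineered lines overexpressed Y36C-PHF5A and carried a doxycycline-inducible FOXA1, WT in the one and C258A in the other. Each had an uninduced library (DMSO alone) and a pair of induced libraries, treated either with DMSO or with WX-02-23 at 20 µM. The labels name no change to the cells' own FOXA1 gene, and give neither the number of clones nor a tag that would separate induced from endogenous protein. WX-02-43 was not profiled in the engineered lines among the samples analysed here. There was 1 library per group. Differences between conditions are therefore given without a test, and the intervals printed cover counting error over peaks only.

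The lists held from 3018 peaks (siFOXA1) to 34119 peaks (siControl). The stereoprobe lists were the shortest of the compound-treated parental lists and close in length, with 18228 peaks for WX-02-43 and 17217 for WX-02-23, against 30557 for DMSO and 33121 for PladB. Read depth is unknown. The genome build is hg19, per the submitters' processing notes. Genes and sequences at the sites were not analysed here.

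The question behind the set is which FOXA1 sites one stereoprobe removed from the list while the other did not. The 2 compounds were compared at the same dose and time. Of the 30557 DMSO peaks, 25438 were also listed with PladB and siControl, and these fell into 4 classes by the stereoprobe lists. The kept sites were 46.3% of them. Missing with both stereoprobes were 6867 (27.0%, 26.5 to 27.5%), missing with WX-02-23 alone 4779 (18.8%, 18.3 to 19.3%), and missing with WX-02-43 alone 2024 (7.96%, 7.63 to 8.30%). Of the 8891 sites missing with WX-02-43, therefore, 22.8% (21.9 to 23.6%) were still listed with WX-02-23. The membership depended on list length. With the 5 lists cut to the length of the shortest, 618 sites met the rule (5.78% of shared peaks), and 523 of them (25.8% of the 2024) were among the sites described here.

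The WX-02-43-missing sites were low to middle peaks of the DMSO list. Their DMSO scores ran from 90.1 to 891, with a median of 189 and quartiles of 140 and 256. The score is the authors' own value per peak, for which the sources used here give no definition. It starts at 90 in every list and reaches 3228 in the DMSO list, and it is used here to rank peaks inside 1 list. Scores from different lists are printed side by side without a comparison of their size. The median site stood at the 41.7th percentile of the DMSO list, against the 79.2nd for kept sites and the 56.1st for sites missing only with WX-02-23. A total of 1329 (65.7%) of the WX-02-43-missing sites lay in the lower 50% of the DMSO list, against 11.8% of kept sites.

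The share of shared peaks that was missing with WX-02-43 fell steadily with DMSO score. In the lowest 10% of the DMSO list, 125 of 195 shared peaks (64.1%, 57.2 to 70.5%) were missing. In class 5 of 10 by score, 37.8% (34.9 to 40.9%) were missing, and in class 7, 13.4% (11.9 to 15.0%). In class 9, 7 of 2710 were missing (0.258%, 0.125 to 0.532%). In the highest class none of 2981 was missing, and 0 counts allow a share of up to 0.101%.

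The corresponding share for WX-02-23 followed another course. Of DMSO peaks listed with WX-02-43, PladB and siControl, 67.3% (60.7 to 73.2%) of the lowest 10% were missing with WX-02-23. In class 8 of 10, 24.2% (22.6 to 25.8%) were missing with WX-02-23 against 3.35% (2.68 to 4.17%) with WX-02-43. Of the 6803 sites missing with exactly 1 stereoprobe, 2024 were missing with WX-02-43. The number was 125 of 269 in the lowest 10% by score, 76 of 775 in class 8 and 0 of 75 in the highest class. These counts describe 1 library per compound, with 18228 and 17217 peaks.

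**Figure D1:**
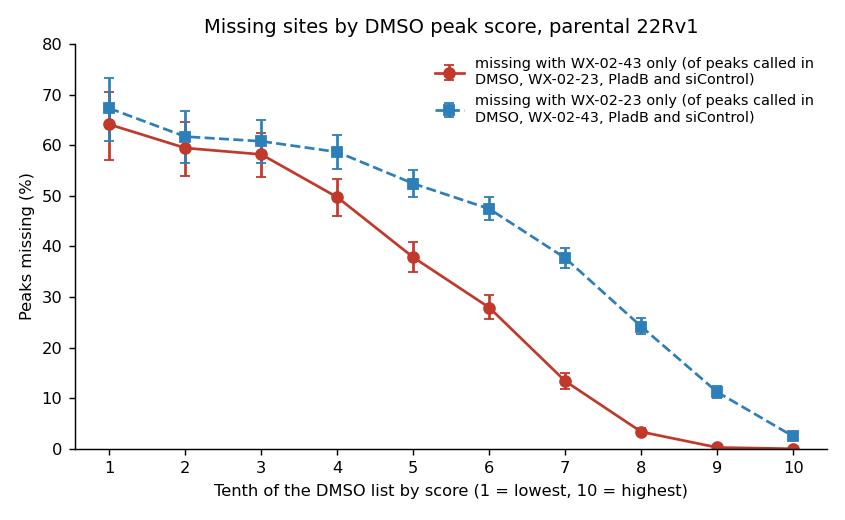
Share of shared parental peaks missing with 1 stereoprobe (%), in 10 equal classes of the DMSO list from the lowest to the highest score, with 95% Wilson intervals over peaks (1 library per condition). The lines start at 64.1% (WX-02-43) and 67.3% (WX-02-23) and fall; the WX-02-43 line reaches 0 in the highest class, where the WX-02-23 line stands at 2.45%.

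The sites were also weak where they were still listed. In the WX-02-23 list their partner peaks had a median score of 135, at the 29.2nd percentile (quartiles 13.6 and 46.9), against the 63.0th for kept sites. A total of 1582 (78.2%, 76.3 to 79.9%) had a partner in the lower 50% of that list. In the PladB list the median partner stood at the 47.2nd percentile with a score of 212, and in the siControl list at the 47.2nd with a score of 210. Kept sites stood at the 81.1st and the 81.5th. These percentiles come from lists of unlike length that chose the sites, and are not compared between lists.

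**Figure D2:**
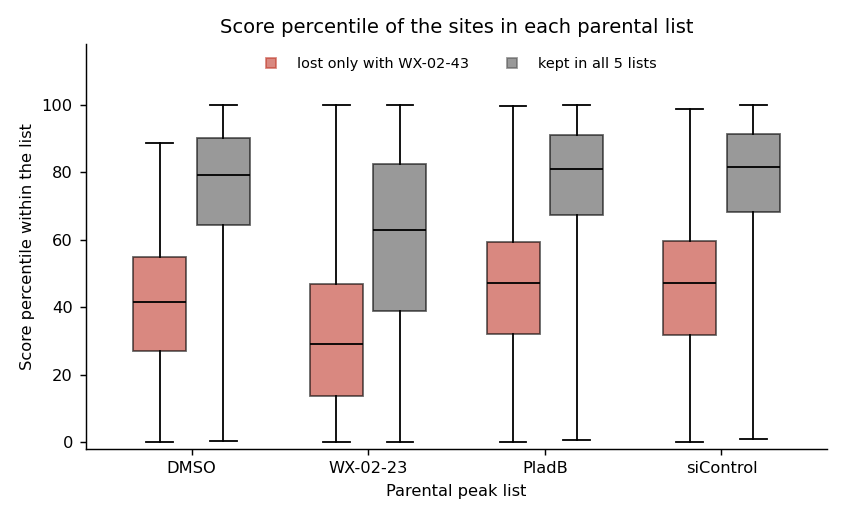
Score percentile of the WX-02-43-missing sites (n = 2024) and of kept sites (n = 11768) inside each of the 4 parental lists they share; boxes give quartiles and median, whiskers the lowest and highest value. The medians of the missing sites lie between 29.2 and 47.2, those of kept sites between 63.0 and 81.5.

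The same values are given at like DMSO score, again as a description of lists that chose the sites. In the middle 20% of the DMSO list (scores of 182 to 296), which held 759 of the WX-02-43-missing and 1600 of the kept sites, the median WX-02-23 percentile was 29.6 for the missing and 41.6 for the kept sites. In the same class the PladB medians were 51.6 and 57.9, and the siControl medians 50.9 and 60.3. In the next 20% (scores of 296 to 586) the WX-02-23 medians were 34.8 for 313 missing sites and 53.2 for 3730 kept ones. Kept sites of the middle class were not far from the floor of the WX-02-43 list, where their WX-02-43 partners had a median score of 147 with a lower quartile of 117, against a minimum of 90.

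The sites were narrower than kept sites as a whole, with close medians at like score. Their median width was 643 bp (quartiles 557 and 742, range 264 to 1881), against 884 bp for kept sites and 709 bp for sites missing only with WX-02-23. Within the middle 20% by score the medians were 684 bp for missing and 674 bp for kept sites. The share missing there was 28.9% (25.8 to 32.1%) among the narrowest shared peaks of up to 631 bp and 33.9% (30.7 to 37.3%) among the widest of 723 bp or more, with overlapping intervals. Together the 2024 sites covered 1.36 Mb of the 23.1 Mb under all DMSO peaks.

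Spacing along the genome was close to that of other DMSO peaks. The median distance from a WX-02-43-missing site to the nearest other DMSO peak was 23189 bp, against 23382 bp for kept sites and 23531 bp for the whole list. Another DMSO peak lay within 10 kb of 644 sites (31.8%, 29.8 to 33.9%), against 30.8% (29.9 to 31.6%) for kept sites. The next shared peak along the chromosome was itself missing with WX-02-43 after 16.0% (14.5 to 17.7%) of missing sites and after 14.4% (13.8 to 15.1%) of kept sites. Of the 2024 sites, 1686 (83.3%) had no other such site within 100 kb, and 278 stood in pairs.

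The longest runs of sites held few members. The longest held 5 sites in 213 kb, at chr17:37808332-38021428, with DMSO scores of 105 to 290, and contained 1 kept site and no site missing only with WX-02-23. In engineered WT cells given WX-02-23, 3 of these 5 sites were called. The next held 4 sites at chr1:149933779-150136052 with scores of 209 to 240, among 8 DMSO peaks of which 2 were kept. The last held 3 of the 4 DMSO peaks at chr5:126532868-126649563, with scores of 207 to 583 and no kept site.

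A WX-02-43 peak lay within 10 kb of 403 of the sites (19.9%) and within 100 kb of 75.4%. These distances were not counted for other sites. The median gap to the nearest WX-02-43 peak was 42279 bp (quartiles 14567 and 98695), and 38 sites (1.88%) had one within 500 bp. Of those 38, 20 had a partner peak in the WX-02-23, PladB or siControl list that also spanned another DMSO peak. The sites just inside the rule were chr3:150465279-150465690, chr2:57743923-57744583 and chr12:57504767-57505458, with gaps of 24, 38 and 55 bp, DMSO scores of 94.0, 148 and 109, and WX-02-23 partner scores of 435, 1022 and 315. Just outside it lay the kept sites chr1:144309893-144310367, chr6:170681436-170681906 and chr4:159034312-159034856, which overlapped a WX-02-43 peak by 23, 26 and 34 bp. Of all kept sites, 3 overlapped their WX-02-43 peak by under 50 bp, and the median overlap was 689 bp. Partners that spanned another DMSO peak were found for 59 of the 2024 sites in all (2.92%) and for 2.47% of kept sites.

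By chromosome, the share of shared DMSO peaks missing with WX-02-43 ran from 9.09% (4.47 to 17.6%) on Y to 22.2% (18.0 to 27.1%) on chromosome 17. The interval lay wholly above the 14.7% of the whole set on chromosome 17, with 72 of 324 peaks, and on chromosome 19, with 50 of 242 (20.7%, 16.0 to 26.2%). On the other 22 chromosomes it included that value. The intervals were not adjusted for the number of chromosomes. The median DMSO percentile of shared peaks was 71.9 on chromosome 17 and 71.5 on chromosome 19, and ran from 69.3 (X) to 78.3 (chromosome 16) on the others. In the 40% of the DMSO list between scores of 182 and 586, the share was 27.8% (21.1 to 35.6%) on chromosome 17, 22.6% (16.1 to 30.7%) on chromosome 19 and 16.4% (15.5 to 17.3%) elsewhere. Sites missing only with WX-02-23 also had a higher share on chromosome 17, with an interval of 35.4 to 44.8%, and on chromosome 19, at 35.8% (30.6 to 41.4%), against 28.9% over all chromosomes. When every list was cut to its top 50%, chromosome 17 gave 13.0% and chromosome 19 a higher share with an interval of 10.9 to 25.5%, against 13.6% over all chromosomes. With the lists at the length of the shortest the shares on chromosomes 17 and 19 were 8.75% and 10.8%, against 5.78%.

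**Figure D3:**
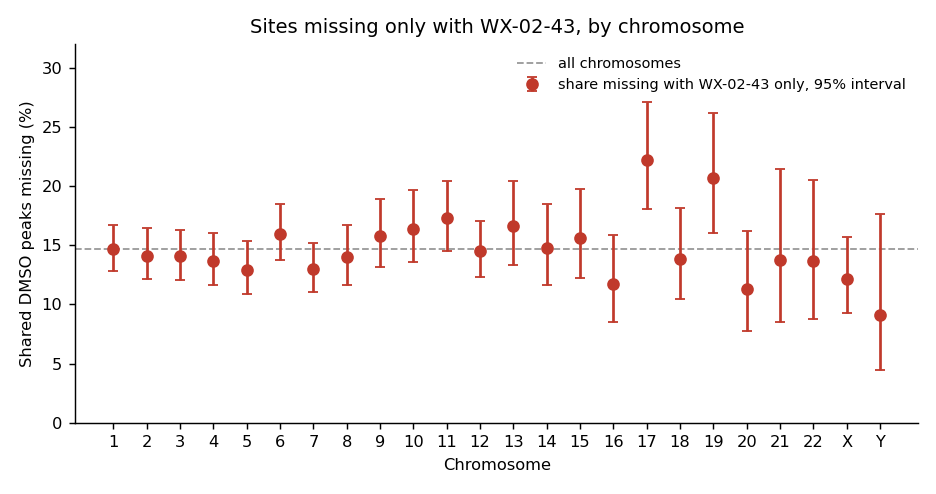
Share of shared DMSO peaks missing only with WX-02-43 (%) on each chromosome, with 95% Wilson intervals over peaks; the dashed line is the 14.7% over all chromosomes. Chromosomes 17 (22.2%) and 19 (20.7%) are the ones whose intervals lie above the line.

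The 6 strongest sites show how far the pattern reached up the DMSO list. The strongest, chr4:101700740-101701981, had a DMSO score of 891 and ranked 3480 of 30557. Its score was 588 with PladB, 561 with siControl and 146 with WX-02-23, and the nearest WX-02-43 peak was 147012 bp away. It was called in all 6 engineered lists, with scores of 377, 510 and 222 in WT cells (no doxycycline, doxycycline with DMSO, doxycycline with WX-02-23) and 1083, 185 and 331 in C258A cells. It stood at the 34.1st percentile of the WX-02-23 list, and at the 88.6th, 79.9th and 79.2nd of the DMSO, PladB and siControl lists.

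The next strongest, chr4:25874406-25875254, had scores of 725 with DMSO, 571 with PladB, 554 with siControl and 339 with WX-02-23. It was called in both induced lines with DMSO and with WX-02-23, and in neither without doxycycline. The site chr12:96587928-96588614 scored 720 with DMSO, 575 with PladB, 802 with siControl and 210 with WX-02-23. It was called in both engineered lines without doxycycline and in no induced list, the reverse of the site before it. The site chr9:137029687-137031076 scored 719 with DMSO, 979 with PladB, 828 with siControl and 142 with WX-02-23, and was called in all 6 engineered lists.

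The last of the 6 were chr1:44810299-44811098 and chr19:18140322-18141320. The first scored 683 with DMSO, 834 with PladB, 691 with siControl and 161 with WX-02-23. The second scored 675 with DMSO, 733 with PladB, 1149 with siControl and 91.5 with WX-02-23, which put it at the 1.03rd percentile of that list. Among the 6 sites, 5 thus stood at or below the 53.0th percentile of the WX-02-23 list, with all 6 in the highest 20% of the DMSO list.

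Sites near the median looked different. The site chr4:163423197-163423657 scored 189 with DMSO, 187 with PladB, 173 with siControl and 127 with WX-02-23, and was called in 3 engineered lists. The site chr20:62886773-62887402, also at 189 with DMSO, scored 177, 148 and 95.6 in the same order and was called in no engineered list. The site chr9:47242260-47242812 scored 188 with DMSO, 265 with PladB, 195 with siControl and 291 with WX-02-23, and was called in no engineered list, with a WX-02-43 peak 949 bp away. In the WX-02-23 list the 3 stood at the 25.6th, 4.56th and 66.5th percentiles, so sites of the same DMSO score were spread widely there.

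The engineered lists were not used to choose the sites. Without doxycycline, 271 of the 2024 sites (13.4%) were called in the WT line and 477 (23.6%, 21.8 to 25.5%) in the C258A line, against 26.3% and 38.1% of all DMSO peaks. With doxycycline and DMSO, 639 (31.6%, 29.6 to 33.6%) were called in WT and 212 (10.5%, 9.21 to 11.9%) in C258A cells, against 36.6% and 17.3% of all DMSO peaks. With doxycycline and WX-02-23, 673 (33.3%, 31.2 to 35.3%) were called in WT and 458 (22.6%, 20.9 to 24.5%) in C258A cells, against 28.8% and 25.6%. Kept sites were called more often in every engineered list, at 49.5%, 55.5% and 48.9% in WT (no doxycycline, DMSO, WX-02-23) and 63.6%, 31.2% and 45.3% in C258A cells. The WX-02-43-missing sites were called less often than the DMSO list as a whole in 5 of the 6 engineered lists and more often in WT cells with WX-02-23. The rule required a parental WX-02-23 peak at each of them, whereas the DMSO list includes sites missing with that compound. Their higher share in WT cells with WX-02-23 is therefore not independent of the choice of sites. The engineered lists differed in length, from 8575 to 31735 peaks, and C258A cells had 13299 peaks with DMSO and 20609 with WX-02-23. With the 4 induced lists cut to 13299 peaks, 12.9% (DMSO) and 18.4% (WX-02-23) of the sites were called in WT cells, and 10.5% and 13.4% in C258A cells. Kept sites stood at 34.3% and 33.2% in WT and at 31.2% and 33.8% in C258A cells at that length.

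**Figure D4:**
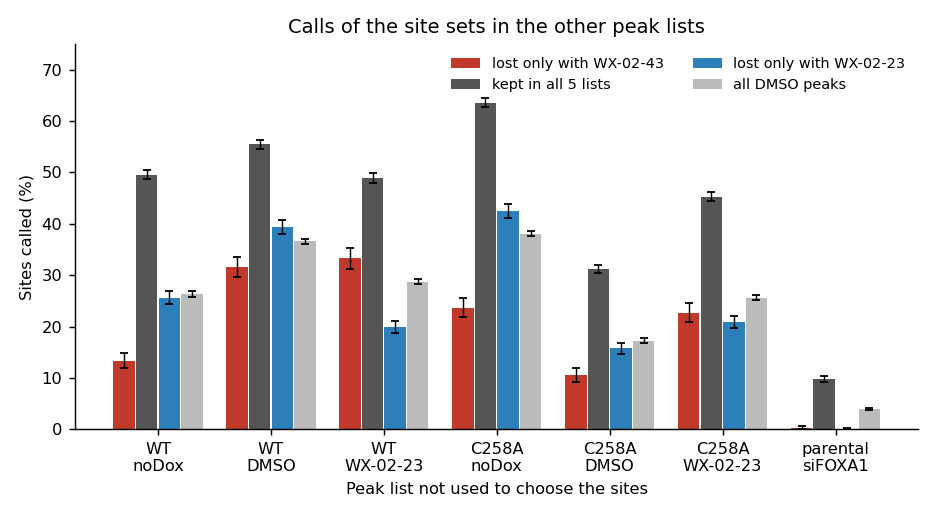
Share of sites called (%) in the 7 lists that did not choose them, for WX-02-43-missing sites (n = 2024), kept sites (n = 11768), sites missing only with WX-02-23 (n = 4779) and all DMSO peaks (n = 30557); bars give 95% Wilson intervals over peaks. In WT cells with WX-02-23 the missing sites stand at 33.3%, between the 19.9% of sites missing only with WX-02-23 and the 48.9% of kept sites.

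The gap to kept sites was smaller at like DMSO score. In the middle 20% by score, 33.7% of missing and 32.5% of kept sites were called in WT cells with DMSO, a difference of 1.23 percentage points (-2.79 to 5.34). With WX-02-23 the shares there were 34.9% and 33.2% in WT cells (1.73 points, -2.33 to 5.86), and those in C258A cells were 23.1% and 24.4% (-1.32 points, -4.90 to 2.42). Each of these 3 intervals includes 0 and leaves room for differences of several points. In the next 20% by score the sites were called less often without doxycycline, with 25.6% against 35.1% in WT cells (-9.53 points, -14.3 to -4.21) and 40.9% against 53.2% in C258A cells (-12.3 points, -17.8 to -6.52). With doxycycline and DMSO the differences in that class were -6.54 points in WT (-12.0 to -0.818) and -5.13 points in C258A cells (-8.62 to -0.805). With WX-02-23 they were -0.589 (-6.04 to 5.12) and -5.40 points (-10.4 to 0.0471). In that class the missing sites also scored lower, with a median of 352 against 425.

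Where they were called, the sites stood lower than kept sites in each engineered list, at a median percentile of 48.8 against 70.0 in WT cells with DMSO and 52.1 against 66.9 with WX-02-23. On induction of FOXA1, 482 of 1753 sites not called in the uninduced WT line (27.5%, 25.5 to 29.6%) became called, against 22.7% over all DMSO peaks. Of the 271 called without doxycycline, 157 (57.9%) were still called, against 75.3%. In C258A cells 98 of 1547 (6.33%, 5.23 to 7.66%) became called, against 5.18% over all DMSO peaks, and 114 of 477 (23.9%) were still called, against 36.9%. The lines thus differed in the same direction for all DMSO peaks. The WT list grew from 8575 to 31735 peaks on induction and the C258A list from 12752 to 13299. With the induced WT list cut to 13299 peaks, 12.9% (11.6 to 14.5%) of the sites were called, beside 13.4% in the uninduced list.

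The engineered lines give the response of the same sites to WX-02-23 in separate libraries. Of the 639 sites called in WT cells with DMSO, 487 (76.2%, 72.8 to 79.4%) were still called with WX-02-23. The share was 68.1% over all DMSO peaks called there, 79.6% (78.6 to 80.5%) for kept sites and 45.7% (43.5 to 48.0%) for sites missing only with WX-02-23. The WX-02-43-missing sites lay 3.36 points below kept sites (-6.94 to -0.0627) and 30.5 points above sites missing only with WX-02-23 (26.4 to 34.3). The parental WX-02-23 list itself separated the WX-02-43-missing sites from those missing only with WX-02-23. Their difference under the same compound is therefore not independent of the rule, in either line. By score class the difference from kept sites had no single direction. From the lowest 20% of the DMSO list upward it was -0.779 points (-14.6 to 15.0), 5.00 points (-4.29 to 14.3), -6.17 points (-12.7 to -0.00891) and 5.87 points (-2.58 to 12.7), and the highest 20% held 5 such sites. At 13299 peaks per list the retained shares were 80.2% (74.9 to 84.5%) for missing and 78.4% (77.1 to 79.7%) for kept sites. In C258A cells 199 of 212 sites (93.9%, 89.8 to 96.4%) were retained, against 92.4% over all DMSO peaks called there, 95.1% for kept sites and 85.8% (83.1 to 88.1%) for sites missing only with WX-02-23. The C258A list grew from 13299 to 20609 peaks with WX-02-23, and at 13299 peaks 81.1% (75.3 to 85.8%) of the sites and 85.6% of kept sites were retained.

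New calls with WX-02-23 were counted in the same way. Of the 1385 sites not called in WT cells with DMSO, 186 (13.4%, 11.7 to 15.3%) were called with WX-02-23, against 6.04% over all DMSO peaks, 10.8% (9.95 to 11.6%) for kept sites and 3.21% (2.63 to 3.92%) for sites missing only with WX-02-23. The last set, which all DMSO peaks include, lacked a parental WX-02-23 peak by definition, so these comparisons also depend on the rule. In C258A cells 259 of 1812 (14.3%, 12.8 to 16.0%) were newly called, against 11.7% over all DMSO peaks and 22.7% for kept sites. In the middle 20% by score the C258A shares were 13.5% for missing and 14.1% for kept sites (-0.577 points, -3.64 to 2.71). The WT shares in that class were 14.9% and 10.5% (4.45 points, 0.987 to 8.22). In the other score classes of 20% the WT interval included 0. With WX-02-23, 380 of the 2024 sites (18.8%) were called in both lines, and 1273 (62.9%) were called in neither. The shares were 39.7% and 45.4% for kept sites, and 13.2% and 72.4% for sites missing only with WX-02-23. They were not counted over all DMSO peaks.

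Counted over all 6 engineered lists, 990 sites (48.9%) were called in none and 46 (2.27%) in all, against 23.5% and 22.5% of kept sites. For sites missing only with WX-02-23 the shares were 41.7% and 4.69%, and they were not counted over all DMSO peaks. In the middle 20% by score the shares called in none were 47.0% and 49.6%. The strongest site called in none was chr9:123604974-123606035, which scored 567 with DMSO, 359 with PladB, 458 with siControl and 138 with WX-02-23. The next was chr19:1205350-1206032, with 561 (DMSO), 481 (PladB), 629 (siControl) and 182 (WX-02-23). At chr11:111175900-111176995 these scores were 531, 191, 300.4 and 209, and a WX-02-43 peak lay 1529 bp away. Called in all 6, besides the chromosome 4 and chromosome 9 sites above, was chr5:40396271-40396970, with a DMSO score of 563 and engineered scores of 552, 329 and 375 in WT and 901, 198 and 395 in C258A cells, in the order given above. These sites were named as the strongest at each end, so their scores do not describe the ends. From the lowest 20% by DMSO score to the fourth, the share called in none fell from 60.3% to 37.1%. Kept sites fell from 62.2% to 30.1%. In the highest 20%, which held 7 WX-02-43-missing sites, the shares were 0% and 7.39%.

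A small group of the sites scored high with WX-02-23. For this comparison, chosen after the values were seen, the WX-02-23 list was divided into 3 equal parts by score, and the 1965 sites with partners that spanned no other DMSO peak were sorted by them. The low part held 1122 sites, the middle 691 and the high 152. Their median DMSO scores were close, at 184, 196 and 198. In induced WT cells given WX-02-23, 23.8% (21.4 to 26.4%), 40.2% (36.6 to 43.9%) and 73.7% (66.2 to 80.04%) of them were called. With DMSO the shares were 25.5%, 35.9% and 57.2% (49.3 to 64.8%). Without doxycycline they were 13.9%, 14.2% and 7.89% (4.57 to 13.3%). The rise of these sites with WX-02-23 score was thus seen in the induced WT lists and not in the uninduced one. Kept sites rose in the uninduced WT list as well, from 35.6% to 42.9% and 61.2%. Calls by part were not counted over all DMSO peaks.

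In C258A cells without doxycycline the shares were 22.5%, 25.2% and 27.6% (21.1 to 35.2%), and the induced lists had a steeper order. With WX-02-23, 15.8% (13.8 to 18.0%), 27.5% (24.3 to 30.9%) and 53.9% (46.0 to 61.7%) of the low, middle and high part were called. With DMSO the shares were 7.93%, 11.6% and 23.7% (17.6 to 31.0%). Of the 65 high sites not called in WT cells with DMSO, 30 (46.2%, 34.6 to 58.1%) were called with WX-02-23, against 13.7% (12.2 to 15.3%) of the kept sites of that part. In C258A cells the shares were 46 of 116 (39.7%, 31.2 to 48.8%) and 31.2% (29.6 to 32.9%). The parts were cut on the parental WX-02-23 list, which the rule also used. Shares called under the same compound are therefore not independent of the choice of sites. Kept sites rose over the 3 parts too. In WT cells they rose from 28.5% to 42.1% and 63.3% with WX-02-23, and from 44.0% to 50.8% and 64.3% with DMSO. In C258A cells they rose from 25.9% to 37.2% and 60.2% with WX-02-23, and from 49.1% to 57.7% and 75.2% without doxycycline. The kept sites of the high part had a median DMSO score of 908, far above the 198 of the missing sites.

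The highest of these sites in the WX-02-23 list was chr1:36629044-36629655, with scores of 1119 with WX-02-23, 160 with DMSO, 157 with PladB and 106 with siControl. It was called in WT cells with DMSO at 106 and with WX-02-23 at 269, and in C258A cells with WX-02-23 alone at 133. The site chr11:114000542-114001199 scored 1039 with WX-02-23, 170 with DMSO, 104 with PladB and 171 with siControl, and its one engineered call was in WT cells with WX-02-23 at 450. The site chr8:105174713-105175326 scored 1090 with WX-02-23, 124 with DMSO, 402 with PladB and 382 with siControl. It was called with WX-02-23 in both engineered lines. Each of the 3 stood at its highest percentile in the parental WX-02-23 list (95.4, 94.7 and 95.2), and the nearest WX-02-43 peaks were 43151, 29355 and 27636 bp away. They were chosen for a high percentile in the parental WX-02-23 list after their values were seen, so that standing reflects the choice.

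**Figure D5:**
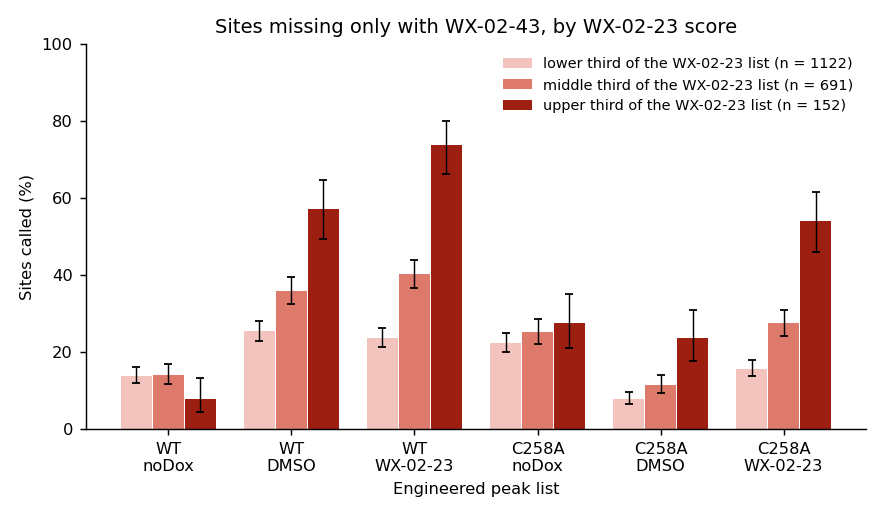
Share of WX-02-43-missing sites called (%) in each engineered list, for sites in the lower (n = 1122), middle (n = 691) and upper (n = 152) part of the parental WX-02-23 list by score; bars give 95% Wilson intervals over peaks. The share rises with the WX-02-23 part in every induced list, to 73.7% in WT cells with WX-02-23. It does not rise in WT cells without doxycycline. Kept sites, not plotted, rose to 63.3% in WT cells with WX-02-23 and to 61.2% in WT cells without doxycycline.

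With siFOXA1, 6 of the 2024 sites (0.296%, 0.136 to 0.645%) were called, against 3.92% of all DMSO peaks and 9.82% (9.30 to 10.4%) of kept sites. The labels give no dose or time for the small interfering RNAs. In the middle 20% by score 0.264% of missing and 2.81% of kept sites were called with siFOXA1 (-2.55 points, -3.50 to -1.56). The sets were unlike in the siControl list of that class, where kept sites had a median percentile of 60.3 and missing sites 50.9. Kept sites also had to be listed with WX-02-43. In the next 20%, 0 of 313 missing sites were called, which allows a share of up to 0.958%, against 6.38% of kept sites. None of the 6 sites was called in an engineered list. One of them, chr3:68130650-68131267, scored 191 with DMSO and 126 with siFOXA1. Another, chr8:86835585-86836214, scored 95.1 with DMSO and stood at the 99.4th percentile of the siFOXA1 list, and the other 4 scored 92.1 to 98.5 there. Sites missing only with WX-02-23 were also rarely called with siFOXA1, at 6 of 4779 (0.126%, 0.0576 to 0.274%).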

How the data were processed

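FOXA1 ChIP-seq peak lists of 12 libraries, 1 per group, were analysed. The 3 input libraries were not analysed here. Each deposited file holds 5 columns without a header: chromosome, start, end, peak name and score. The score is the authors' own value per peak, as deposited, with no definition in the sources used here. Peak names begin with MACS. The submitters' processing notes name bcl2fastq, Bowtie2 and hg19. Peak caller settings, filters and the control are not given in the sources used here, and 1 list was deposited per library. Starts were read as counted from 0 and are printed counted from 1.

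Peaks were called shared on an overlap of at least 1 bp (Python 3.11.15, pandas 2.3.3), checked against bedtools 2.31.1 and tested on simulated data. A partner is the overlapping peak with the highest score. Shares carry 95% Wilson intervals (scipy 1.17.1), and differences of shares carry Newcombe intervals. Both treat peaks as independent, cover counting error only and ignore that read depth is unknown. The design has no replicates, so no test was run. The sites and the lists of comparisons were chosen with earlier results of these data known. Named sites followed a rule: the 6 strongest by DMSO score, the 3 strongest called in all and in none of the engineered lists, the 3 nearest the median score, the 3 longest runs with gaps of up to 100 kb, and the 3 nearest either side of the overlap rule. Sites named for their WX-02-23 or siFOXA1 call were chosen after their values were seen. No gene or sequence of the build was used here.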

Additional observations from a re-analysis of the deposited data

Results flagged for a closer look

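The WX-02-43-missing sites took opposite courses on induction with doxycycline: the share called rose by 18.2 percentage points in WT cells and changed by -13.1 points in C258A cells. With the induced WT list cut to 13299 peaks the share there was 12.9%, against 13.4% in the uninduced list of 8575 peaks. The rise was not present after this cut, though the lengths still differed. Kept sites stood at 34.3% in the cut list, against 49.5% in the uninduced one. At full length kept sites also took opposite courses, by 5.94 and -32.4 points, as did sites missing only with WX-02-23, by 13.8 and -26.7 points. With WX-02-23 against DMSO in induced cells, kept sites changed by -6.54 points in WT and 14.1 in C258A cells, and sites missing only with WX-02-23 by -19.4 and 5.08 points. Each value compares 1 library with 1 library of unlike list length, and the differences between lines were not tested.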

How the results depend on the processing

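Of 110 alternative values for 17 results, 64 stayed within a set limit and 46 moved beyond it. The limit was the counting interval of the main value, or a ratio of 1.5 for the number of members. None of 16 values moved with a gap of up to 500 bp allowed, none of 15 on autosomes only, and none of 15 with 1 partner each, an alternative chosen after seeing the data. Because the rule asks for presence in some lists and absence from another, the lists' lengths and the number of lists required set the members by construction. With lists cut to the length of the shortest there were 618 members, 5.78% of shared peaks, with a median score of 297, a width of 748 bp, percentiles of 33.2 (WX-02-23), 64.5 (PladB) and 65.1 (siControl), and shares of 8.75% and 10.8% on chromosomes 17 and 19. With the top 50% of each list there were 957 members (13.6%), 116 of them among the 2024, with a score of 391, a width of 799 bp, percentiles of 64.2, 72.1 and 71.7, and 13.0% on chromosome 17. With a reciprocal overlap of 50% the share was 16.7%, the score 203, the width 658 bp and the percentiles 33.4, 49.0 and 49.6, and 9.88%, 29.2% and 20.4% were called in WT without doxycycline, WT with WX-02-23 and C258A with WX-02-23; 1785 of the 2024 stayed members. Without the siControl requirement the share was 15.8%, the score 182, the width 634 bp and the PladB percentile 45.3. Without the PladB requirement the share was 15.6%, the score 182 and the siControl percentile 45.5. Without the WX-02-23 requirement there were 8891 members (35.0%), with a score of 161, a width of 609 bp, percentiles of 39.0 (PladB) and 39.9 (siControl), and 42.6% on both chromosomes. With induced lists at equal length the shares called were 12.9% (WT, DMSO), 18.4% (WT, WX-02-23) and 13.4% (C258A, WX-02-23). Another DMSO peak lay within 5 kb of 22.7% and within 50 kb of 73.7%. No paired analysis was possible because each group had 1 library. Read depth is unknown, so its limit on these calls could not be measured.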
